A study of Mus musculus with 4 samples.

Results

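The genes of inhibitory transmission by GABA and glycine were examined in the hippocampus of mice that had undergone repeated social defeat (R-SDS). The set held 31 genes, which encode subunits of the GABA-A, GABA-B and glycine receptors, the enzymes and transporters that make, load, take up or break down GABA, the scaffold gephyrin, chloride transporters, and markers of inhibitory interneurons. Each gene was represented by the transcript row of the array that carried exactly 1 gene symbol, and where a gene had several such rows, by the row with the highest mean over the 4 arrays. By this rule all 31 genes were measured, among 19938 genes on 21789 such rows in the whole series.

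Total RNA of dissected hippocampus was measured on arrays of mouse transcripts, 1 array for each of 4 male C57BL/6JJmsSlc mice of 11 to 12 weeks. The R-SDS group (2 arrays, R-SDS 1 and R-SDS 2) had spent 10 min a day for 10 days with an aggressive ICR male and the rest of each day behind a divider in the same cage. The Control group (2 arrays, Control 1 and Control 2) had been kept in pairs in divided cages with no defeat. The study describes the array mice of the R-SDS group as among those that avoided an ICR mouse in a social test, a class that the sample labels do not give. Each sample is a whole piece of tissue, so that fewer cells of a type and less RNA per cell cannot be told apart. The labels do not say what a replicate number marks, or whether mice of a group came from separate litters or cages, and p-values therefore measure only the spread between these arrays. An exact two-sided permutation test of 2 against 2 arrays cannot give a p below 0.333, so that tests were taken from the limma fit over all 21789 rows.

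GABA is the main inhibitory transmitter of the forebrain. Inhibitory interneurons make it from glutamate with the GAD enzymes and load it into vesicles, and it opens GABA-A receptors, chloride channels built from several subunits around a central pore, or acts through GABA-B receptors, which couple to G proteins. Glycine opens related channels, which dominate in spinal cord and brain stem and are found in hippocampus mostly outside synapses. Whether an open channel hyperpolarises a neuron depends on its internal chloride, which the transporters KCC2 and NKCC1 set.

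No member passed the adjusted test between R-SDS and control mice. With the limma test and Benjamini-Hochberg adjustment over all rows, 0 of 31 members had an adjusted p under 0.05, as had 0% of all 21789 rows, where the smallest adjusted p was 0.264. By the thresholds that the study names, a log2 difference beyond 0.5 with an unadjusted p under 0.05, again 0 of 31 members were called, against 0.34% of all rows. At an unadjusted p under 0.05 alone, 1 member was called, the glycine receptor subunit Glra3, against 1.01% of all rows. The differences of the members were small. The R-SDS mean was higher for 7 members and lower for 24. Of all 21789 rows it was higher for 11511 and lower for 10267. The median difference was -0.03 on the log2 scale (0.01 over all rows), and the median size of a difference was 0.05 (0.07 over all rows). In 25 of 31 members the difference was smaller than 0.2, and in 25 it was smaller than its own standard error, which ran from 0.13 to 0.30 with a median of 0.16.

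**Figure D1:**
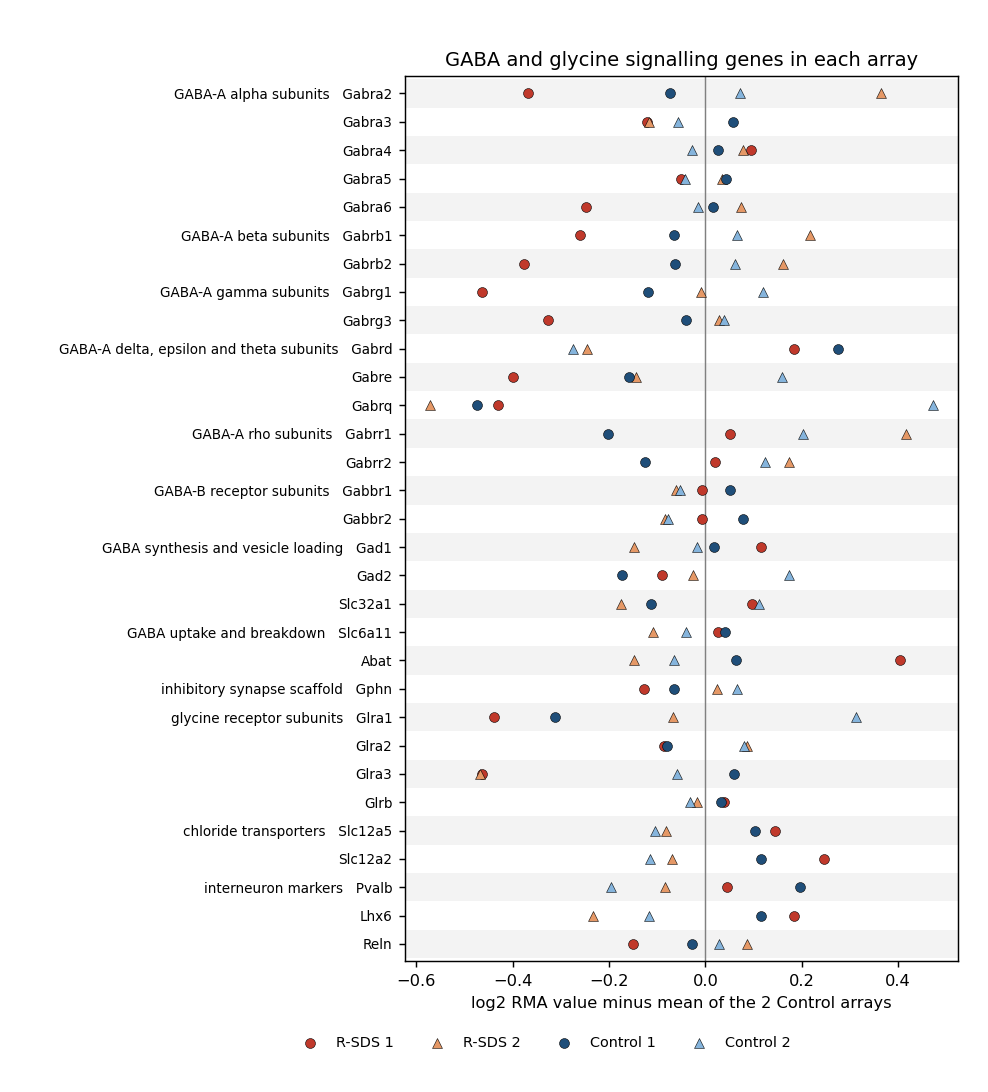
Every member in every array, as the log2 RMA value minus the mean of the 2 Control arrays (horizontal axis, log2), with genes grouped by role down the page, red and orange symbols for the R-SDS arrays, blue ones for the Control arrays, circles for replicate number 1 and triangles for number 2. Both R-SDS symbols of Glra3 lie at about -0.46, left of both Control symbols, while for most other genes the groups overlap.

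The groups did not overlap for 3 members. Both R-SDS arrays lay below both Control arrays for 2 of them (Glra3 and Gabra3), a pattern that 9.06% of all rows showed, and above them for 1 (Gabra4), a pattern of 9.41% of all rows. For the other 28 members the array values of the groups overlapped. After a further quantile normalisation of the arrays the groups were apart for more members, with R-SDS higher for 3 (Gabra4, Gabrr1 and Gabrr2), against 12.3% of all rows, and lower for 5 (Glra3, Gabra3, Gabre, Gabbr1 and Glrb), against 9.43% of all rows.

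Glra3 encodes the alpha3 subunit of the glycine receptor, known best from the superficial dorsal horn of the spinal cord, where it takes part in the control of pain. Its log2 values were 5.16 in R-SDS 1 and 5.15 in R-SDS 2, against 5.68 in Control 1 and 5.56 in Control 2. The R-SDS arrays were nearly equal and both lay under the lower of the Control arrays. The difference was -0.46 with a standard error of 0.13 (limma, unadjusted p = 0.0118, adjusted p = 1, 2 arrays a group), or 0.724-fold, with -0.52 within number 1 and -0.41 within number 2. The unadjusted p rose to 0.0501 without R-SDS 2 and to 0.0704 without Control 1, with differences of -0.46 and -0.41. Glra3 was a dim transcript, with values little above the lower quartile of all rows, which lay between 4.88 and 5.08 in the 4 arrays. The groups overlapped for the other glycine receptor subunits. Glrb, the beta subunit that binds gephyrin, had 9.88 and 9.82 in R-SDS 1 and 2 and 9.87 and 9.81 in Control 1 and 2 (difference 0.01). Glra2, the alpha2 subunit, had 7.07 and 7.24 in R-SDS 1 and 2 and 7.08 and 7.24 in Control 1 and 2 (difference -0.00). For both genes the arrays of a number were closer to each other than the arrays of a group. Glra1, the alpha1 subunit of adult spinal cord, was dim, with 4.34 and 4.71 in R-SDS 1 and 2, against 4.47 and 5.09 in Control 1 and 2. Its difference was -0.25 (SE 0.24), and 0.06 without Control 2.

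Gabra3 and Gabra4 are alpha subunits of the GABA-A receptor. The alpha3 subunit (Gabra3) is found at synapses, and the alpha4 subunit (Gabra4) pairs with the delta subunit in receptors outside synapses, among other places on granule cells of the dentate gyrus. Gabra3 had 9.11 in R-SDS 1 and 9.12 in R-SDS 2, against 9.29 in Control 1 and 9.18 in Control 2. Gabra4 had 9.56 in R-SDS 1 and 9.54 in R-SDS 2, against 9.49 in Control 1 and 9.44 in Control 2. In both genes the difference was smaller than its standard error of 0.13, with -0.12 for Gabra3 and 0.09 for Gabra4 (limma, adjusted p = 1 for both). Of the markers of dentate granule cells, C1ql2, Dsp, Tdo2 and Lct were higher in R-SDS within both numbers and Prox1 was not. C1ql2 had 8.47 and 8.09 in R-SDS 1 and 2, against 8.02 and 7.76 in Control 1 and 2 (difference 0.39, SE 0.18). Tdo2 (0.39, SE 0.14, limma, unadjusted p = 0.0348, adjusted p = 1) and Lct (0.31, SE 0.17) also had groups apart, whereas the groups overlapped for Dsp (0.39, SE 0.22) and Prox1 (0.03, SE 0.14). The part of dentate content in the Gabra4 value was not tested.

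**Figure D2:**
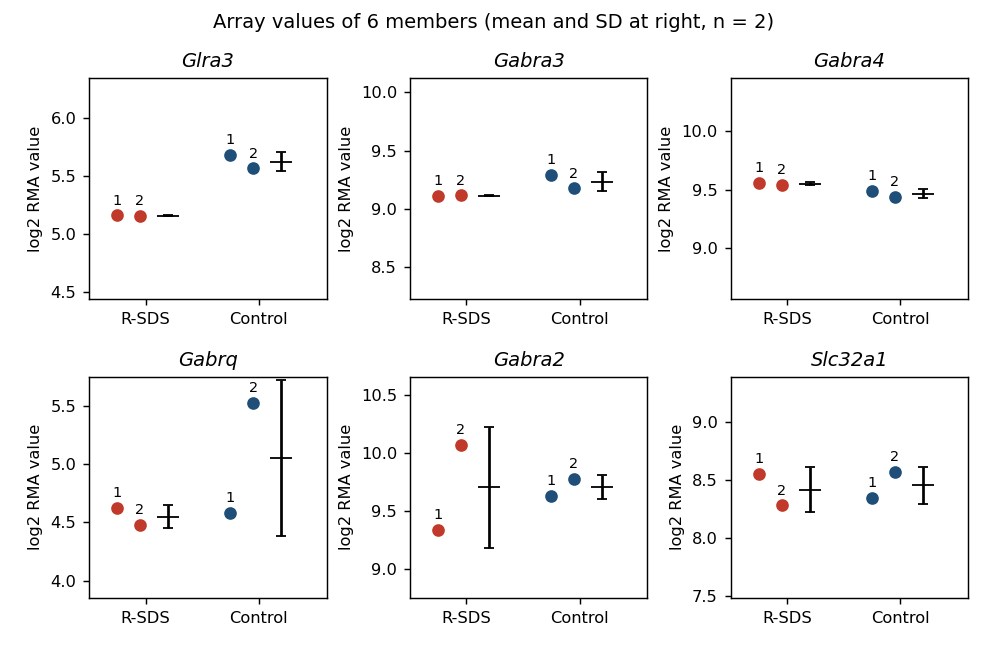
Array values on the log2 RMA scale (vertical axes of equal length, centred on the gene) of Glra3, Gabra3, Gabra4, Gabrq, Gabra2 and Slc32a1, with R-SDS arrays in red at left, Control arrays in blue at right, points labelled by replicate number, and the mean with SD (n = 2) beside them. The groups are apart in the top row, while in the bottom row Control 2 lies far above the rest for Gabrq and the groups overlap for Gabra2 and Slc32a1.

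The sequences before the start sites of these 3 genes are shown because their groups did not overlap in the deposited values. They are the 250 bases upstream of a RefSeq transcript start on GRCm38.p6, read from 5′ to 3′ on the gene's strand, at chr8:55940168-55940417 (+) for Glra3, chrX:72656920-72657169 (-) for Gabra3, where RefSeq has a further start site not printed, and chr5:71658309-71658558 (-) for Gabra4. Capitals mark a GC box (GGGCGG) or a TATA box (TATAAA), each searched on both strands, so that a match to the other strand reads CCGCCC or TTTATA.
Glra3: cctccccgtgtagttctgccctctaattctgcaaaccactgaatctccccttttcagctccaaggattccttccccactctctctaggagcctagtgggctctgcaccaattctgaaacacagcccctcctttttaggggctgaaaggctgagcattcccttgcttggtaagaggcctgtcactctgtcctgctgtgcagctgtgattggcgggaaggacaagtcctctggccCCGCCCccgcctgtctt
Gabra3: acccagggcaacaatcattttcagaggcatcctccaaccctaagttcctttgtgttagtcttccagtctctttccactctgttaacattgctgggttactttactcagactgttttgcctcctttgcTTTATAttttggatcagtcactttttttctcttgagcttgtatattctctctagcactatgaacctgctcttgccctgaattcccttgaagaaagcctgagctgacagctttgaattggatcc
Gabra4: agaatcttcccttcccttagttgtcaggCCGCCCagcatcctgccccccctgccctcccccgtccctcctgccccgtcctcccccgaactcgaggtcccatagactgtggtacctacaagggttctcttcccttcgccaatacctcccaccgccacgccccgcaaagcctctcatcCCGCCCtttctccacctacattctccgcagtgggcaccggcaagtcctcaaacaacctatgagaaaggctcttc
The Glra3 window held 1 GC box and no TATA box, the Gabra4 window 2 GC boxes and no TATA box, and the Gabra3 window 1 TATA box and no GC box. Base composition differed alongside, with 56.0% G and C in the Glra3 window, 61.2% in that of Gabra4 and 42.4% in that of Gabra3. Of the 35 such windows of 27 members that had an entry, 19 (54.3%) held a GC box and 5 (14.3%) a TATA box, against 32.7% and 12.4% of all 32851 windows. A match is a description of the letters and not of a factor bound there.

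Among the 14 GABA-A subunits measured, 11 had a lower and 3 a higher mean in R-SDS mice, and 0 passed the adjusted test. The alpha5 subunit (Gabra5), which in hippocampus forms receptors outside synapses on pyramidal cells, had 11.49 and 11.58 in R-SDS 1 and 2 and 11.59 and 11.50 in Control 1 and 2. The groups overlapped, and the difference was -0.01. The gamma subunits Gabrg1 (difference -0.24, SE 0.19) and Gabrg3 (-0.15, SE 0.16) had lower means, as had Gabrb2 (-0.11, SE 0.20), a beta subunit, which forms part of the GABA binding site. Gabrb2 was carried by 3 rows, and the further rows gave -0.17 and -0.07, all with the same sign. Gabrb1 (-0.02) and Gabrd (-0.03), the delta subunit of extrasynaptic receptors that respond to neurosteroids, were near 0.

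Several GABA-A subunits that are rare in hippocampus were at the dim end of the array. Gabra6, whose known site is the cerebellar granule cell, had 3.90 and 4.23 in R-SDS 1 and 2 and 4.17 and 4.14 in Control 1 and 2. Gabrr1, a rho subunit known from the retina, had 4.21 and 4.57 in R-SDS 1 and 2 and 3.95 and 4.36 in Control 1 and 2. Both lay below the lower quartile of all rows in all 4 arrays, and the RMA values carry no call of whether they were detected. The epsilon subunit (Gabre) had 4.71 and 4.96 in R-SDS 1 and 2, against 4.95 and 5.27 in Control 1 and 2, with a difference of -0.27 (SE 0.17). It was lower within both numbers, by -0.24 and -0.30, while R-SDS 2 and Control 1 were level. Without single arrays the difference of Gabre ranged from -0.43 to -0.11 and that of Gabrr1 (0.23, SE 0.20) from 0.03 to 0.44. Gabrr2, the other rho subunit, differed by 0.10 (SE 0.15).

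The theta subunit (Gabrq) had the largest difference of the set and depended on a single array. Its values were 4.62 in R-SDS 1 and 4.48 in R-SDS 2, against 4.58 in Control 1 and 5.52 in Control 2. Control 2 stood alone. The other 3 arrays lay close together, each below its lower quartile of all rows, so that Gabrq was a dim transcript. The difference of -0.50 had a standard error of 0.30 (limma, unadjusted p = 0.148, adjusted p = 1) and came to 0.04 within number 1 and -1.04 within number 2. Without Control 2 it was -0.03, and without Control 1 it was -0.97 (limma, unadjusted p = 0.00233, adjusted p = 1). In brain Gabrq is known from hypothalamus and brain stem nuclei, and markers of other brain regions were therefore read in the same arrays. Control 2 had the highest value for 4 of 6 measured hypothalamus markers of 7 listed. The lead was narrow for Avp (5.85, against 5.84 in R-SDS 2), Oxt (6.86, against 6.80 in R-SDS 2) and Pomc (5.99, against 5.96 in Control 1). It was wider for Trh (5.31, against 5.05 in R-SDS 2). Of the 6 markers, 5 were lower in both arrays of number 1 than in both of number 2. Their summed level on the log2 scale was 8.14 in R-SDS 1, 8.44 in R-SDS 2, 8.21 in Control 1 and 8.48 in Control 2. Control 2 was also highest for 3 of 5 measured striatum markers of 7 listed (Drd2, Rgs9 and Gpr6), while Drd1 was highest in R-SDS 2 and Ppp1r1b in R-SDS 1. The summed level of these 5 was 9.33 in R-SDS 1, 9.18 in R-SDS 2, 9.14 in Control 1 and 9.42 in Control 2. The medians for neocortex and for thalamus and habenula went the other way. Over 7 neocortex markers the median from the Control mean was -0.20 in Control 2 and 0.20 in Control 1. Over 8 markers of thalamus and habenula it was -0.08 and 0.08. In the latter list Prkcd was highest in Control 2, with 7.54 and 7.83 in R-SDS 1 and 2 and 7.61 and 8.05 in Control 1 and 2. Lef1 was level in the Control arrays (6.49 and 6.50), and the other markers of that list were lower in Control 2 than in Control 1. The part of tissue from other regions in the Gabrq value was not tested.

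More members were separated by the replicate number than by the stress, and the same was true of all rows. The value distribution over all rows was wider in number 1 than in number 2, with interquartile ranges of 3.37 (R-SDS 1) and 3.11 (R-SDS 2) and of 3.34 (Control 1) and 3.06 (Control 2). Both arrays of number 1 lay below both arrays of number 2 for 13 of 31 members, a pattern of 29.2% of all rows, and above them for 11, a pattern of 31.6% of all rows. Of the 14 GABA-A subunits, 8 were lower in number 1 and 1 was higher. A further quantile normalisation was an alternative chosen after the values were seen. After it 10 of 31 members were lower in number 1 and 8 were higher, against 19.7% and 35.8% of all rows. Of the 14 GABA-A subunits, 5 were then lower and 1 was higher. R-SDS was lower than Control within both numbers for 10 members, against 22.7% of all rows, and higher within both for 6, against 27.3% of all rows. The signs within the numbers were opposite for 15 of 31 members, and for 10894 of all 21789 rows.

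**Figure D3:**
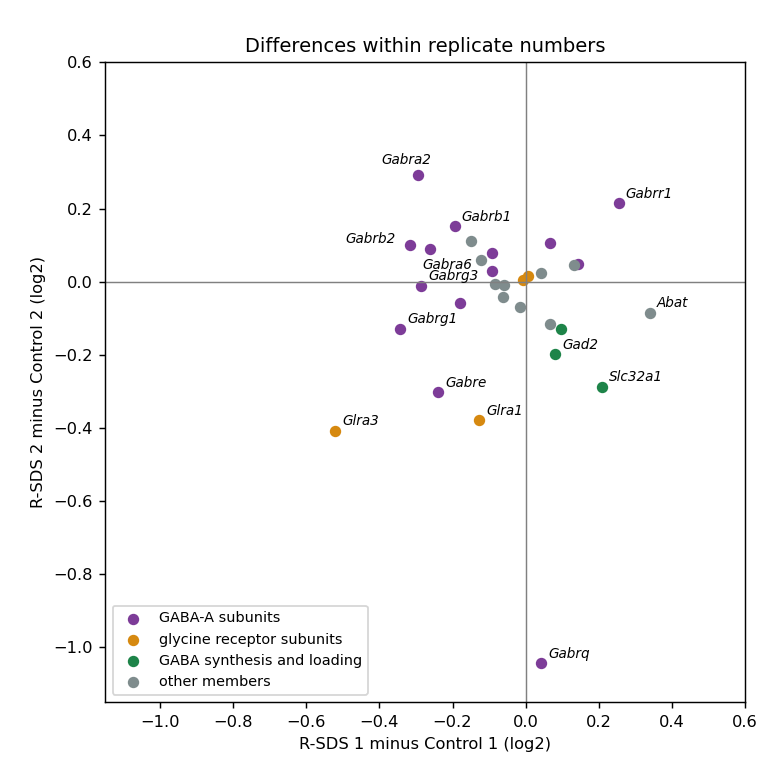
The difference R-SDS 2 minus Control 2 (vertical axis, log2) against R-SDS 1 minus Control 1 (horizontal axis, log2), 1 point per member, coloured by role and named where either difference is beyond 0.18. Glra3 and Gabre lie well below 0 on both axes and Gabrr1 above, whereas Gabra2 and Slc32a1 lie in opposite corners and Gabrq is far from 0 on the vertical axis only.

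Gabra2 was the clearest case of opposite signs among the receptor subunits. The alpha2 subunit is found at synapses on the axon initial segment of pyramidal cells and carries much of the calming action of benzodiazepines. It had 9.34 in R-SDS 1 and 10.07 in R-SDS 2, against 9.63 in Control 1 and 9.78 in Control 2. The R-SDS arrays enclosed the Control arrays. The group difference was -0.00 (SE 0.25), with -0.30 within number 1 and 0.29 within number 2. Gabrb1, which encodes a beta subunit, had the same layout, with 9.72 and 10.19 in R-SDS 1 and 2 and 9.91 and 10.04 in Control 1 and 2. So had Gabrb2, with 10.23 and 10.77 in R-SDS 1 and 2 and 10.55 and 10.67 in Control 1 and 2. For Gabrg1 (6.78 in R-SDS 1, 7.24 in R-SDS 2, 7.13 in Control 1 and 7.36 in Control 2) and Gabrg3 (8.43 in R-SDS 1, 8.79 in R-SDS 2, 8.72 in Control 1 and 8.80 in Control 2) R-SDS 1 was again the lowest array, and without it the difference of Gabrg1 was -0.0089. Over the 14 GABA-A subunits, R-SDS 1 deviated from the Control mean by a median of -0.25 and R-SDS 2 by 0.05. The delta subunit gene Gabrd went by number alone and the other way, with 7.12 in R-SDS 1 and 6.69 in R-SDS 2, and with 7.21 in Control 1 and 6.66 in Control 2.

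Some of these genes are neighbours in the genome. In the RefSeq order of protein-coding genes, Gabrg1 and Gabra2 have 0 genes between them, Gabra2 and Gabra4 have 1, and Gabra4 and Gabrb1 have 0. Within this cluster Gabrg1, Gabra2 and Gabrb1 were lowest in R-SDS 1, but Gabra4, which lies among them, was highest there. Gabra6 and Gabrb2 are also adjacent, and both were lowest in R-SDS 1. On the X chromosome Gabra3 and Gabrq have 0 genes between them and Gabre and Gabra3 have 1. The means of these 3 genes were all lower in R-SDS mice, with groups apart for Gabra3 only.

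R-SDS 1 stood apart from the other arrays in markers of the choroid plexus, the epithelium that borders the hippocampus in the ventricle. All 11 measured markers of 13 listed were highest in R-SDS 1, with a median of 2.52 above the Control mean, against -0.19 in R-SDS 2. Their summed level was 13.77 in R-SDS 1, 9.88 in R-SDS 2, 11.71 in Control 1 and 9.36 in Control 2. Ttr was the brightest marker in each array and weighed most in this sum. It had 13.21 and 8.79 in R-SDS 1 and 2 and 11.38 and 7.43 in Control 1 and 2. Over the 11 markers Control 1 lay a median of only 0.15 above the Control mean. The 6 neuron markers had a median difference of -0.01. Of the markers of hippocampal subfields 14 of 15 were measured, of which 11 were higher and 3 lower in R-SDS mice on average (median difference 0.09). What part the choroid plexus content had in the low subunit values of R-SDS 1 was not tested.

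For the genes that make and load GABA the groups overlapped and no test was passed. Gad1, which encodes the larger glutamate decarboxylase, had 10.10 in R-SDS 1 and 9.84 in R-SDS 2, with 10.00 in Control 1 and 9.97 in Control 2 (difference -0.02, SE 0.15). Gad2, which encodes the smaller isoform found at nerve endings, had 9.83 and 9.89 in R-SDS 1 and 2, with 9.75 and 10.09 in Control 1 and 2 (difference -0.06, SE 0.16). Slc32a1, the vesicular transporter for GABA and glycine, had 8.55 in R-SDS 1 and 8.28 in R-SDS 2, with 8.34 in Control 1 and 8.57 in Control 2 (difference -0.04, SE 0.16). All 3 genes were higher in R-SDS within number 1 and lower within number 2, with 0.21 and -0.29 for Slc32a1, 0.10 and -0.13 for Gad1 and 0.08 and -0.20 for Gad2. Over the 4 arrays Slc32a1 was highest in Control 2 and R-SDS 1 at nearly the same level.

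The groups also overlapped for the interneuron markers of the set. Lhx6, a transcription factor of interneurons from the medial ganglionic eminence, had 7.71 and 7.30 in R-SDS 1 and 2 and 7.65 and 7.41 in Control 1 and 2. Pvalb, the calcium-binding protein of fast-spiking interneurons, had 8.10 and 7.97 in R-SDS 1 and 2 and 8.25 and 7.86 in Control 1 and 2. Both went with the replicate number and differed by -0.02 between the groups. Reln, the secreted protein reelin, which interneurons make in adult hippocampus, differed by -0.03. The Dlx genes are transcription factors that interneurons keep from their origin in the ganglionic eminences. Dlx1 had 7.99 and 7.82 in R-SDS 1 and 2 and 7.83 and 8.05 in Control 1 and 2. Dlx5 had 6.95 and 6.55 in R-SDS 1 and 2 and 6.71 and 6.84 in Control 1 and 2. Dlx6 had 6.32 and 6.33 in R-SDS 1 and 2 and 6.22 and 6.67 in Control 1 and 2. All 3 were higher in R-SDS within number 1 and lower within number 2, with opposite signs as for Slc32a1. Dlx2 had higher R-SDS values in both numbers, with groups apart and a difference of 0.14 (SE 0.13). Dlx genes are also expressed in striatum. Of its 5 measured markers, 3 were highest in Control 2, but Drd1 was highest in R-SDS 2 and Ppp1r1b in R-SDS 1. Of the 4 Dlx genes, 2 were highest in Control 2 and 2 in R-SDS 1. The part of striatal tissue in the Dlx values was not tested.

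**Figure D4:**
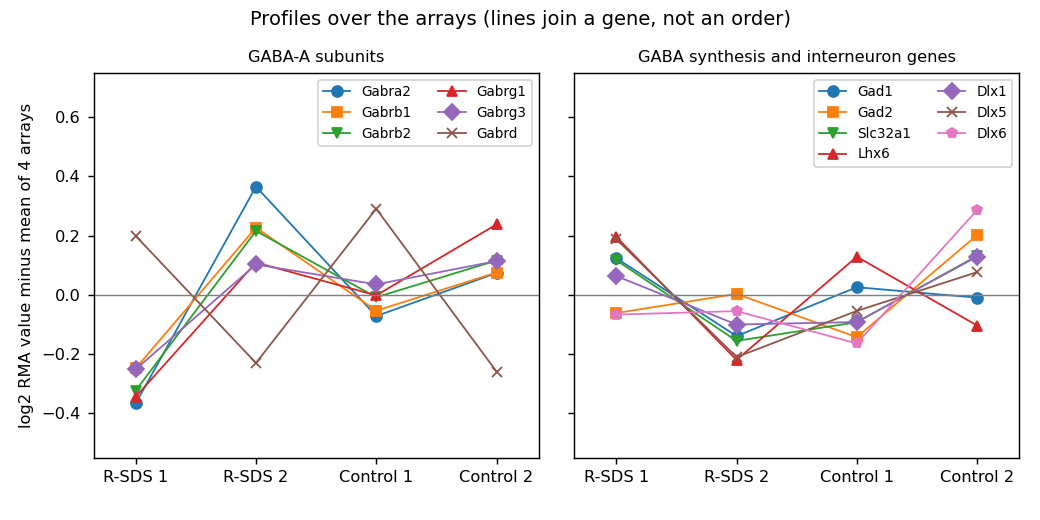
Log2 RMA value minus the gene's mean over the 4 arrays (vertical axis) in R-SDS 1, R-SDS 2, Control 1 and Control 2, for 6 GABA-A subunits (left) and for 7 genes of GABA synthesis and interneurons (right), where a line connects the points of 1 gene and implies no order of arrays. Gabra2, Gabrb1, Gabrb2, Gabrg1 and Gabrg3 are lowest in R-SDS 1 while Gabrd goes by replicate number. At right, Gad2, Slc32a1, Dlx1 and Dlx6 are highest in Control 2, and Gad1, Lhx6 and Dlx5 are highest in R-SDS 1.

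The groups also overlapped for GABA-B receptors, uptake, the scaffold and the chloride transporters. Gabbr1, the subunit that binds GABA, had 11.10 and 11.04 in R-SDS 1 and 2 and 11.15 and 11.05 in Control 1 and 2. Gabbr2, the subunit that couples to the G protein, had 11.33 and 11.25 in R-SDS 1 and 2 and 11.41 and 11.25 in Control 1 and 2. Both were close to 0, with -0.03 for Gabbr1 (SE 0.13) and -0.05 for Gabbr2 (SE 0.14). Slc12a5, the neuronal chloride exporter KCC2, had 10.96 and 10.73 in R-SDS 1 and 2 and 10.92 and 10.71 in Control 1 and 2 (difference 0.03, SE 0.15). Slc12a2, the chloride importer NKCC1, had 9.33 and 9.01 in R-SDS 1 and 2 and 9.20 and 8.97 in Control 1 and 2 (difference 0.09, SE 0.17). Both transporters were higher in the arrays of number 1 than in those of number 2. The Slc12a2 transporter is abundant in choroid plexus, whose markers were high in R-SDS 1, and their part in its value was not tested. Slc6a11, the astrocytic GABA transporter GAT3, differed by -0.04 and Gphn, which encodes the scaffold protein gephyrin of inhibitory synapses, by -0.05. Abat, the transaminase that breaks down GABA, had 10.82 in R-SDS 1, against 10.27 in R-SDS 2, 10.48 in Control 1 and 10.35 in Control 2. R-SDS 1 stood above the rest, and the difference of 0.13 had a standard error of 0.21.

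Other genes of the pathway were read from 6 lists of 88 genes, of which 82 were measured. The R-SDS mean was higher for 41 and lower for 41, 0 passed the adjusted test and 1 passed the thresholds of the study, which 0.34% of all rows did. The groups were apart with R-SDS higher for 5 of the 82, against 9.41% of all rows, and with R-SDS lower for 11, against 9.06% of all rows. The gene past the thresholds was Slc38a5, a transporter of glutamine and glycine. It had 6.44 in R-SDS 1 and 6.57 in R-SDS 2, against 5.81 in Control 1 and 5.99 in Control 2. Both R-SDS arrays were above both Control arrays, with a difference of 0.60 and a standard error of 0.14 (limma, unadjusted p = 0.00515, adjusted p = 1). Among the 13 measured of 15 genes of uptake and metabolism, 11 had a higher and 2 a lower mean, and over these genes R-SDS 1 lay a median of 0.32 above the Control mean and R-SDS 2 at -0.02. The mean was higher in R-SDS mice for 6 of 6 astrocyte markers as well, with medians of 0.29 above the Control mean in R-SDS 1 and -0.00 in R-SDS 2, and their part in this list was not tested. Slc6a9, the glycine transporter GlyT1 that takes glycine up beside excitatory synapses and into astrocytes, had 9.55 and 9.56 in R-SDS 1 and 2, against 9.78 and 9.67 in Control 1 and 2. Its groups were apart, with a difference of -0.18 (SE 0.13).

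Of the 24 measured of 25 other interneuron markers, 7 had a higher and 17 a lower mean. Calb2, which encodes calretinin, a calcium-binding protein of certain interneurons and of mossy cells in mouse, had 7.35 in R-SDS 1 and 7.87 in R-SDS 2, against 8.04 in both Control arrays. It had the largest difference of these lists on the lower side, -0.43 (SE 0.19, limma, unadjusted p = 0.0697, adjusted p = 1), which was -0.17 without R-SDS 1. Tac1, the precursor of substance P, had 6.02 and 5.93 in R-SDS 1 and 2, against 6.20 and 6.31 in Control 1 and 2 (difference -0.28, SE 0.13). Crh, the precursor of corticotropin-releasing hormone, had 4.94 and 4.74 in R-SDS 1 and 2, against 4.66 and 4.72 in Control 1 and 2 (difference 0.15, SE 0.14). In these 3 genes the groups did not overlap, although for Crh by a narrow margin.

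Among the 13 measured of 14 genes of chloride and pH regulation, 7 had a higher and 6 a lower mean. Slc12a7, the cotransporter KCC4, had 6.40 in R-SDS 1 and 5.86 in R-SDS 2, against 5.66 in Control 1 and 5.84 in Control 2. R-SDS 1 carried most of its difference of 0.38 (SE 0.21), which was 0.11 without that array. Slc4a10, a sodium bicarbonate transporter that is also made in choroid plexus, differed by 0.10 and Slc4a3, an anion exchanger, by -0.09, each with groups apart and a standard error of 0.13. Slc4a3 was carried by 2 rows, whose mean gave -0.24 (limma, unadjusted p = 0.15, adjusted p = 1). Among the 18 measured of 19 genes of receptor trafficking and scaffolds 9 were higher and 9 lower on average, and the largest differences with groups apart were -0.08 for Shisa7, an auxiliary subunit of GABA-A receptors, -0.07 for Plcl2 and -0.05 for Nlgn2, the adhesion protein neuroligin of inhibitory synapses. Of the 9 partners of GABA-B receptors, 4 were higher and 5 lower, and Rgs7, a regulator of G protein signalling, was the only one with groups apart (-0.09, SE 0.13). The 5 measured of 6 genes of neurosteroids and benzodiazepine-site ligands overlapped in every case.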

How the data were processed

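Hippocampal RNA of 2 R-SDS and 2 control mice was hybridised to Affymetrix Mouse Gene 1.0 ST arrays. The labels name 300 ng of RNA and a sense target labelling kit, whereas the methods name another amount and kit, and which was used is not settled here. The authors ran RMA in Affymetrix Expression Console and deposited the log2 values. The sources used here give no genome build for the array annotation. No detection calls came with the values, and precision is limited by how few arrays there are.

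Of 35556 rows, 21789 had 1 symbol in the platform annotation, 1621 had several and 12146 were not listed. Through Entrez identifiers, 99.6% of the rows with 1 symbol were found in RefSeq GRCm38.p6 and 0 symbols changed. The groups were compared by limma 3.58.1 in R 4.3.3 (lmFit and eBayes, group only, 2 residual and 4.07 prior degrees of freedom, no filter), two-sided, with Benjamini-Hochberg adjustment over 21789 rows and a threshold of 0.05. The standard errors are limma's. Summaries were made in Python 3.11.15 and plots with matplotlib 3.10.9. The procedure was tested on simulated data.

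The members and lists were chosen with earlier results of these data known, and no test was made over the members. Array values were to be printed for members past a call rule, with groups apart and a difference beyond 0.2, with opposite signs beyond 0.2 within the numbers, and for the 5 brightest and the 5 dimmest, and of each pathway list for up to 3 genes with groups apart. The array values of other members and those of the Dlx genes, Slc6a13, Slc12a4 and marker genes were printed after they had been seen. Alternatives were quantile normalisation, a filter on dim rows, the replicate number as a block, the methods' t-test, an intensity trend, all rows of a gene or of the table, and leaving out each array.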

Additional observations from a re-analysis of the deposited data

How the results depend on the processing

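In 0 of the alternatives did a member pass the adjusted p of 0.05. Glra3 had a negative difference in each alternative that kept it, between -0.52 and -0.41 without single arrays, and the filter on dim rows removed it. At unadjusted p it gave 0.031 after quantile normalisation (-0.44), 0.016 with the methods' t-test and 0.0208 with an intensity trend. Quantile normalisation set the groups apart with R-SDS higher for 3 members and lower for 5, and turned Glrb to -0.0081. The mean of all rows of a gene changed Slc4a3 to -0.24. The filter left 24 members, of which the groups were apart with R-SDS higher for 1 and lower for 1. The matching shares of all filtered rows are not given here, so that these counts cannot be read as a result about the members. Of all rows, 74 passed the thresholds of the study, 6 after the filter, 19 with the methods' t-test (440 at unadjusted p) and 523 when all rows of the table were tested. The filter and the whole table changed the number of rows tested, and for the others the cause was not tested.

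With the replicate block the unadjusted p was under 0.05 for 3 members, Glra3 (0.00496), Gabre (0.031) and Gabrr1 (0.0479), and for 1047 of all rows, each member with an adjusted p of 0.96 (limma). The deviations of same-numbered arrays from the group means correlated at 0.517 over rows, but with 2 pairs and no label on what a number marks the arrays were not taken as paired.

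Without single arrays, where the lone array of a group is assumed to vary like the other group, 0 to 49 of all rows passed the adjusted p (49 without R-SDS 2 and 2 without R-SDS 1) and 174 to 739 the thresholds of the study. Of the members 0 to 2 passed these thresholds, Gabrq (-0.97) and Glra1 (-0.57, unadjusted p = 0.0476) without Control 1 and Glra3 (-0.52, unadjusted p = 0.0297) without Control 2 (limma, adjusted p = 1). With fewer arrays the groups were apart with R-SDS higher for 4 to 9 members and lower for 8 to 14, and the median difference was -0.0615 to -0.0337. Leaving out an array can remove an overlap but cannot create one, so that these counts could only stay or rise. The matching shares of all rows were not counted, and the rise therefore cannot be read as a result about the members. The sign turned without some array for 24 members and never for 7, of which Glra3 is given above. In the others the size still moved, with Gabra3 -0.18 to -0.0609, Gabra4 0.0589 to 0.11, Gabrg1 -0.46 to -0.0089, Gabre -0.43 to -0.11, Gabrq -0.97 to -0.0277 and Gabrr1 0.0314 to 0.44. The lowest and highest differences of those that turned were, among receptor subunits of GABA-A, Gabra2 -0.37 to 0.36, Gabra5 -0.0507 to 0.0353, Gabra6 -0.25 to 0.0748, Gabrb1 -0.26 to 0.22, Gabrb2 -0.38 to 0.16, Gabrg3 -0.33 to 0.0279, Gabrd -0.31 to 0.24 and Gabrr2 -0.0277 to 0.22. Among the other genes of transmission they were Gabbr1 -0.0857 to 0.018, Gabbr2 -0.12 to 0.0327, Gad1 -0.15 to 0.12, Gad2 -0.23 to 0.11, Slc32a1 -0.18 to 0.0975, Slc6a11 -0.11 to 0.0259, Abat -0.15 to 0.40, Gphn -0.13 to 0.0232, Glra1 -0.57 to 0.0596, Glra2 -0.0866 to 0.0859 and Glrb -0.0222 to 0.0435. Among transporters of chloride and others and interneuron genes they were Slc12a5 -0.081 to 0.14, Slc12a2 -0.0698 to 0.25, Pvalb -0.22 to 0.18, Lhx6 -0.23 to 0.18, Reln -0.15 to 0.087, Slc6a13 -0.30 to 0.70, Slc12a4 -0.0119 to 0.67, Dlx1 -0.15 to 0.0735, Dlx5 -0.22 to 0.18 and Dlx6 -0.35 to 0.10.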

Other observations

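The transporters Slc6a13 and Slc12a4 of the pathway lists, picked after their values were seen, were highest in R-SDS 1, as was each measured choroid plexus marker. Slc6a13, the GABA transporter GAT2 of meninges, had 7.64 in R-SDS 1 and 6.64 in R-SDS 2, against 7.20 in Control 1 and 6.69 in Control 2, with 0.45 within number 1 and -0.05 within number 2. Slc12a4, the widely expressed cotransporter KCC1, had 7.42 in R-SDS 1 and 6.74 in R-SDS 2, against 6.90 in Control 1 and 6.61 in Control 2. For Slc12a4 the order of the arrays was that of the choroid plexus sum, which was also the order of Ttr. For Slc6a13 only the lower arrays changed places. The part of such tissue in these values was not tested.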
